A study of Mus musculus with 20 samples.

Results

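The nuclear receptor gene *Pparg*, the fatty acid transporter gene *Cd36*, 3 fatty acid binding protein genes (*Fabp1*, *Fabp2* and *Fabp4*) and 3 fatty acid transport protein genes (*Slc27a1*, *Slc27a2* and *Slc27a4*) were followed in 20 mouse livers. These 8 genes of 50559 in the count table were selected by name, from a list drawn up with earlier results of the same livers in view. Their levels and fold changes therefore describe where each gene lies, and are not independent evidence for any direction. All mice were *Cideb* fl/fl, homozygous for the floxed allele. WT mice received AAV-TBG-GFP and KO mice received AAV-TBG-Cre, in which the TBG promoter restricts the recombinase to hepatocytes, so other liver cells of the KO mice still carry *Cideb*. Either vector was combined with a Western diet (WD) or with a high fat diet that lacks choline and has defined amino acids (CDA-HFD), with 5 livers in each of the 4 groups. The labels give 3 months on either diet, whereas the study describes a longer time on WD than on CDA-HFD for mice of this genotype. If the longer time holds for these livers, diet and its duration cannot be told apart below. The labels give neither age nor sex.

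Fatty acids reach the hepatocyte from the blood, where lipoprotein lipase and hepatic lipase release them from lipoproteins. CD36 and the transport proteins of the Slc27 family take them up, and several Slc27 members also activate very long chain fatty acids to acyl-CoA. Inside the cell the small FABP proteins bind fatty acids and carry them between membranes, lipid droplets and the nucleus. PPARγ, encoded by *Pparg*, is the master regulator of fat cell differentiation. It is scarce in healthy liver and more abundant in steatotic liver, where *Cd36* and *Fabp4* are among its known targets. *Fabp1* is the abundant FABP of hepatocytes, *Fabp2* is best known from enterocytes, and *Fabp4* from fat cells and macrophages. PPARα, the related receptor of fatty acid oxidation, shares targets such as *Fabp1* and *Acsl1* with it.

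In the GRCm38 annotation *Pparg* lies on chr6:115360951-115490399 and *Fabp1* on chr6:71199827-71205023, both on the plus strand. *Cd36* lies on chr5:17781690-17888801 and *Fabp4* on chr3:10204088-10208576, both on the minus strand, and *Fabp2* on chr3:122895072-122899506 on the plus strand. *Slc27a1* (chr8:71568882-71587302), *Slc27a2* (chr2:126552407-126588243) and *Slc27a4* (chr2:29802634-29817522) are on the plus strand. The exons of *Slc27a2* share 419 bases, or 11.2% of their length, with the noncoding gene *Gm26697* on the opposite strand, and the other 7 genes share none with another gene. RefSeq promoter windows (build GRCm38.p6, 250 bases before to 50 after a start) were matched for 7 of the 8 genes, all but *Fabp4*. They were searched on both strands for AGGTCA, the hexamer of nuclear receptors, for the direct repeat AGGTCANAGGTCA with at most 2 mismatches, in which PPAR and RXR can bind, and for TATAAA. A direct repeat match includes any hexamer it overlaps. AGGTCA was found in 16.3% of all 32851 windows, the direct repeat in 3.86% and TATAAA in 13.6%. The 250 bases before the start are printed for *Cd36* and *Pparg*, which were lower in KO livers on CDA-HFD, and for *Fabp1* and *Slc27a2*, whose levels varied together between livers. Capitals mark the matches.
*Cd36*, chr5:17835897-17836146, minus strand: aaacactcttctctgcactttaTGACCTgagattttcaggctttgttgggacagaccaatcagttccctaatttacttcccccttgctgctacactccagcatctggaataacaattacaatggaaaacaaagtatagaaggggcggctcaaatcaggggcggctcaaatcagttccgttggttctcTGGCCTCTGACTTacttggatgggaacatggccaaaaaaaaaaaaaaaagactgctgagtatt
*Pparg*, chr6:115362099-115362348, plus strand: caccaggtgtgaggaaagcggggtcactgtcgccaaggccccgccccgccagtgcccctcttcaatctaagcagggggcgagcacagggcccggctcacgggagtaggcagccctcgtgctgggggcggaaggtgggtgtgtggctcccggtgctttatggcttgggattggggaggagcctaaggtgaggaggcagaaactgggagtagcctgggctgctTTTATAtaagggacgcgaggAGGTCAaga
*Fabp1*, chr6:71199629-71199878, plus strand: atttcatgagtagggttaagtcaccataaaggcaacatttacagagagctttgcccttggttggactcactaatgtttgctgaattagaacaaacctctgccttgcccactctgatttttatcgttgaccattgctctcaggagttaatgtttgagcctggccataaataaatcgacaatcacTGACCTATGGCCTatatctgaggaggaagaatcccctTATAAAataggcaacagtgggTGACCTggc
*Slc27a2*, chr2:126552774-126553023, plus strand: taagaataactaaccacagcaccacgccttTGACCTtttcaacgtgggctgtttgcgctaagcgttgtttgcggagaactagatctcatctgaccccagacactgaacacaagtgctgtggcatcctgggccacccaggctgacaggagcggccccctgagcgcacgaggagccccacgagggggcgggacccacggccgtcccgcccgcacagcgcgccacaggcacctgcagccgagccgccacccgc

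The *Fabp1* window holds TGACCTATGGCCT, a direct repeat on the minus strand with 1 mismatch whose first base lies 67 bases before the start, together with a TATA match at -30 and a further hexamer at -9. The *Cd36* window holds TGGCCTCTGACTT at -63, with 2 mismatches to the repeat, and a hexamer at -228. The *Pparg* window holds a hexamer at -9 and a TATA match on the minus strand at -29, and another of its 3 windows holds a hexamer at -28. *Slc27a2* has a hexamer at -220. None of the 3 motifs was found in the windows of *Fabp2*, *Slc27a1* or *Slc27a4*, which says only that these letters are not in those windows.

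*Cideb*, the gene deleted in the KO livers, checked the labels. It gave 52 to 100 reads per WT liver on WD and 35 to 60 on CDA-HFD, against 0 to 5 and 0 to 6 reads in the KO livers, and no library went against its label. Reads counted on genes ranged from 11697049 to 16827147 per liver. Levels below are CPM, the reads on a gene relative to its library's total after TMM scaling over all 20 livers. Fold changes, given on the log2 scale ± standard error, and adjusted p values come from edgeR's quasi-likelihood test over all genes with Benjamini-Hochberg adjustment, and a gene passed under 0.05. The 11 hepatocyte markers in the table, *Alb* among them, summed to at least 44213 CPM in every liver. Of 7 enterocyte markers *Cdx1*, *Cdx2* and *Alpi* were at 0 in all 20 livers and the list summed to at most 5.33 CPM.

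KO liver 5 on CDA-HFD stood apart from its group over all genes with enough reads. On the first principal component of the 10 livers on CDA-HFD, which held 59.9% of the variance, it lay at -41.7, among the WT livers (-64.5 to -7.76) and away from the other 4 KO livers (43.3 to 67.0). Its *Cideb* was nevertheless at 0.06 CPM. The 15 macrophage markers summed to 2935 CPM in it, where the remaining KO livers had 939 to 1191 CPM and WT livers 2504 to 4871 CPM. The 12 stellate cell markers summed to 4021 CPM, with 1442 to 1564 CPM in the remaining KO livers. The hepatocyte markers summed to 48238 CPM, against 92512 to 134188. Results on CDA-HFD are therefore given with and without this liver. It was singled out after seeing the data, for lying with WT livers where the other KO livers did not. Leaving it out thus favors wider differences between KO and WT livers, and values without it are descriptions. In whole liver RNA, fewer cells of a type and less RNA per cell cannot be told apart.

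**Figure D1:**
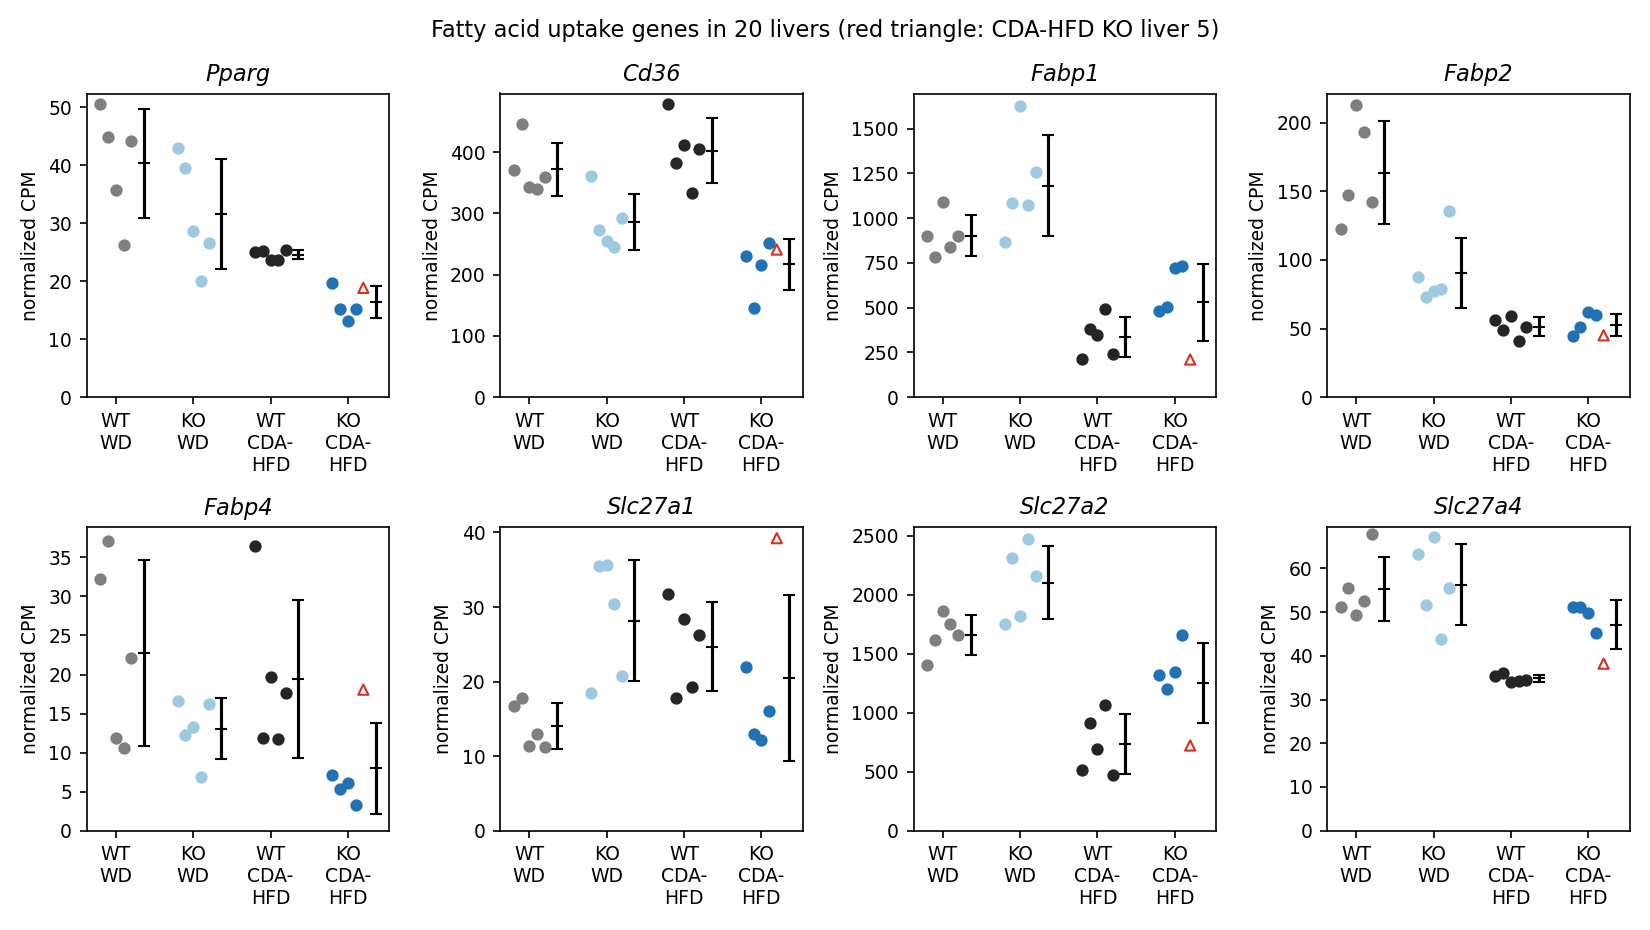
Normalized CPM (linear axis from 0) of the 8 genes, with 1 point per liver in the 4 groups and the mean ± SD of 5 livers beside them. On CDA-HFD the WT and KO points of *Pparg*, *Cd36* and *Slc27a4* do not overlap, and KO liver 5, the red triangle, keeps low *Cd36* (241 CPM) while its *Fabp4* (18.1 CPM) and *Slc27a2* (723 CPM) lie among the WT livers.

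Per length of the principal transcript, *Fabp1* was the most abundant of the 8 mRNAs, at 1631 ± 210 CPM per kb (SD, n = 5) in WT livers on WD, and *Slc27a2* followed at 569 ± 58.8 CPM per kb. *Fabp2* (170 ± 39.1 CPM per kb) and *Cd36* (109 ± 12.7 CPM per kb) came next. *Fabp4*, at 25.4 ± 13.3 CPM per kb, and *Pparg*, at 22.8 ± 5.34, overlapped in their ranges over livers. *Slc27a4* stood at 13.6 ± 1.82 and *Slc27a1* was lowest at 5.01 ± 1.09 CPM per kb. The levels of *Fabp2* and *Cd36* exchanged places on CDA-HFD, where WT livers had 53.1 ± 7.11 CPM per kb of *Fabp2* and 118 ± 15.6 of *Cd36*, with no overlap between the livers. In the same WT livers on CDA-HFD the ranges of *Slc27a4* (8.37 to 8.90 CPM per kb) and *Slc27a1* (6.38 to 11.4 CPM per kb) overlapped.

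**Figure D2:**
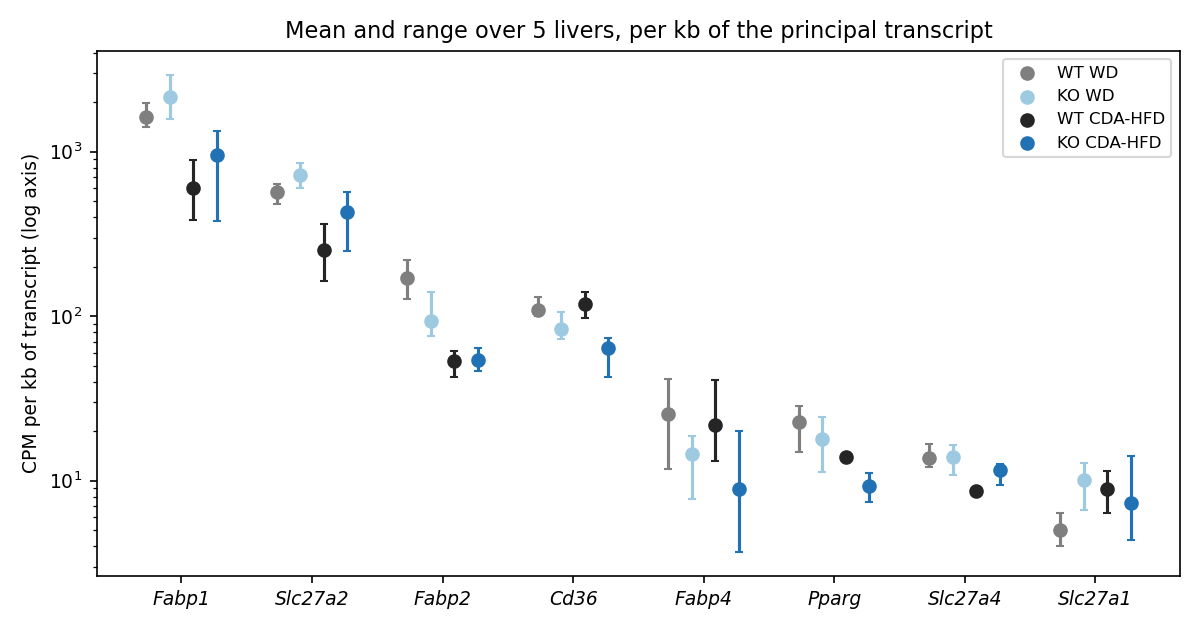
Level of each mRNA in CPM per kb of its principal transcript (log axis), as the mean and range of the 5 livers in each group. *Fabp1* and *Slc27a2* lead in every group, and *Cd36* lies above *Fabp2* only in WT livers on CDA-HFD without overlap (97.8 to 141 against 42.8 to 61.1 CPM per kb).

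On CDA-HFD, KO livers had less *Pparg* and less *Cd36* mRNA and more *Slc27a4* mRNA than WT livers. *Pparg* stood at 25.1, 25.2, 23.6, 23.7 and 25.3 CPM in the WT livers and at 19.7, 15.2, 13.1, 15.2 and 18.8 CPM in the KO livers. The WT livers were tightly grouped (SD 0.836) and each KO liver lay below all of them. *Pparg* was lower in KO livers (log2 fold change -0.59 ± 0.11, adjusted p = 0.0137). It passed without each of the 10 livers in turn, with log2 fold changes from -0.66 to -0.51.

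*Cd36*, the scavenger receptor that imports long chain fatty acids, showed the larger of these differences. Its levels were 479, 382, 412, 333 and 406 CPM in WT livers and 231, 146, 216, 252 and 241 CPM in KO livers. The highest KO liver lay well under the lowest WT liver, and KO liver 5 was no exception. The difference was 1.86-fold (log2 fold change -0.89 ± 0.15, adjusted p = 0.0105), and it passed in all 10 fits that left out 1 liver, from -0.95 to -0.78. Without KO liver 5 it was -0.93 with an adjusted p of 0.00125. In KO liver 5, a single liver, the macrophage marker sum was within the WT range, and *Cd36*, *Pparg* and *Fabp1* were below their WT ranges. *Slc27a1* and *Slc27a4* were above theirs. The part of macrophages in these values was not tested.

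*Slc27a4*, which encodes the transport protein FATP4, was at 35.4, 36.1, 33.9, 34.2 and 34.6 CPM in WT livers and at 51.3, 51.1, 49.9, 45.1 and 38.2 CPM in KO livers on CDA-HFD. The groups did not overlap, and KO liver 5 gave the lowest KO value. The log2 fold change was 0.43 ± 0.09 (1.35-fold higher, adjusted p = 0.0169). It passed in 8 of 10 fits with 1 liver left out, missing narrowly without KO liver 1 (adjusted p = 0.0513) and without KO liver 3 (adjusted p = 0.05). It also missed the threshold with library size as the only scaling (0.23, adjusted p = 0.126). That scaling moved the median of all genes by -0.19 on the log2 scale in this comparison.

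The other 5 genes did not pass on CDA-HFD in edgeR with all livers, whereas DESeq2, 1 fit of all 20 livers and a replicate block each passed *Fabp4* and *Slc27a2* as well. *Slc27a2*, the very long chain acyl-CoA synthetase of hepatocytes, stood at 513, 915, 692, 1064 and 475 CPM in WT livers and at 1319, 1205, 1348, 1656 and 723 CPM in KO livers. In 4 KO livers its level exceeded every WT liver, and KO liver 5 lay inside the WT range (log2 fold change 0.77 ± 0.27, adjusted p = 0.0749). *Fabp1* was at 213, 379, 346, 491 and 242 CPM in WT livers and 479.8, 501, 719, 734 and 210.4 CPM in KO livers (0.66 ± 0.33, adjusted p = 0.175). In 3 KO livers it exceeded every WT liver, and KO liver 5 had the lowest *Fabp1* of all 10.

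*Fabp4*, the FABP of fat cells and macrophages, had the largest fold change and the widest spread. WT livers on CDA-HFD held 36.4, 11.8, 19.7, 11.7 and 17.6 CPM and KO livers 7.18, 5.39, 6.05, 3.31 and 18.1 CPM. In 4 KO livers it was below every WT liver, and in KO liver 5 it was among them. The log2 fold change was -1.28 ± 0.45 (adjusted p = 0.0707). *Slc27a1*, encoding FATP1, ran from 17.8 to 31.8 CPM in WT livers, from 12.1 to 21.9 CPM in 4 KO livers and reached 39.2 CPM in KO liver 5 (-0.27 ± 0.31, adjusted p = 0.547). *Fabp2* was alike in range, at 41.3 to 59.0 CPM in WT against 44.9 to 62.0 CPM in KO livers (0.03 ± 0.12, adjusted p = 0.889).

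In all, 3 of the 8 genes passed on CDA-HFD, where 15.5% of 17204 genes passed, and the same 3 had no overlap between WT and KO livers, as did 9.57% of all genes. With KO liver 5 left out, 7 of the 8 passed, all but *Fabp2*, in a fit in which 41.4% of 17411 genes passed. That liver was singled out for lying with the WT livers, so this fit is a description and not separate support. *Fabp4* was then at -1.83 ± 0.35 (adjusted p = 0.00212), *Slc27a2* at 0.91 ± 0.23 (adjusted p = 0.0098), *Fabp1* at 0.86 ± 0.24 (adjusted p = 0.0143) and *Slc27a1* at -0.65 ± 0.21 (adjusted p = 0.0277). *Slc27a4* was at 0.50 ± 0.07 (adjusted p = 0.00049) and *Pparg* was at -0.64 ± 0.11 (adjusted p = 0.00151). *Fabp1* and *Slc27a1* passed under no setting that kept KO liver 5, the call on *Fabp4* depended on the method as well as on that liver, and *Pparg* and *Cd36* passed with and without it. *Slc27a2* also passed without WT liver 4 (0.94, adjusted p = 0.0441).

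**Figure D3:**
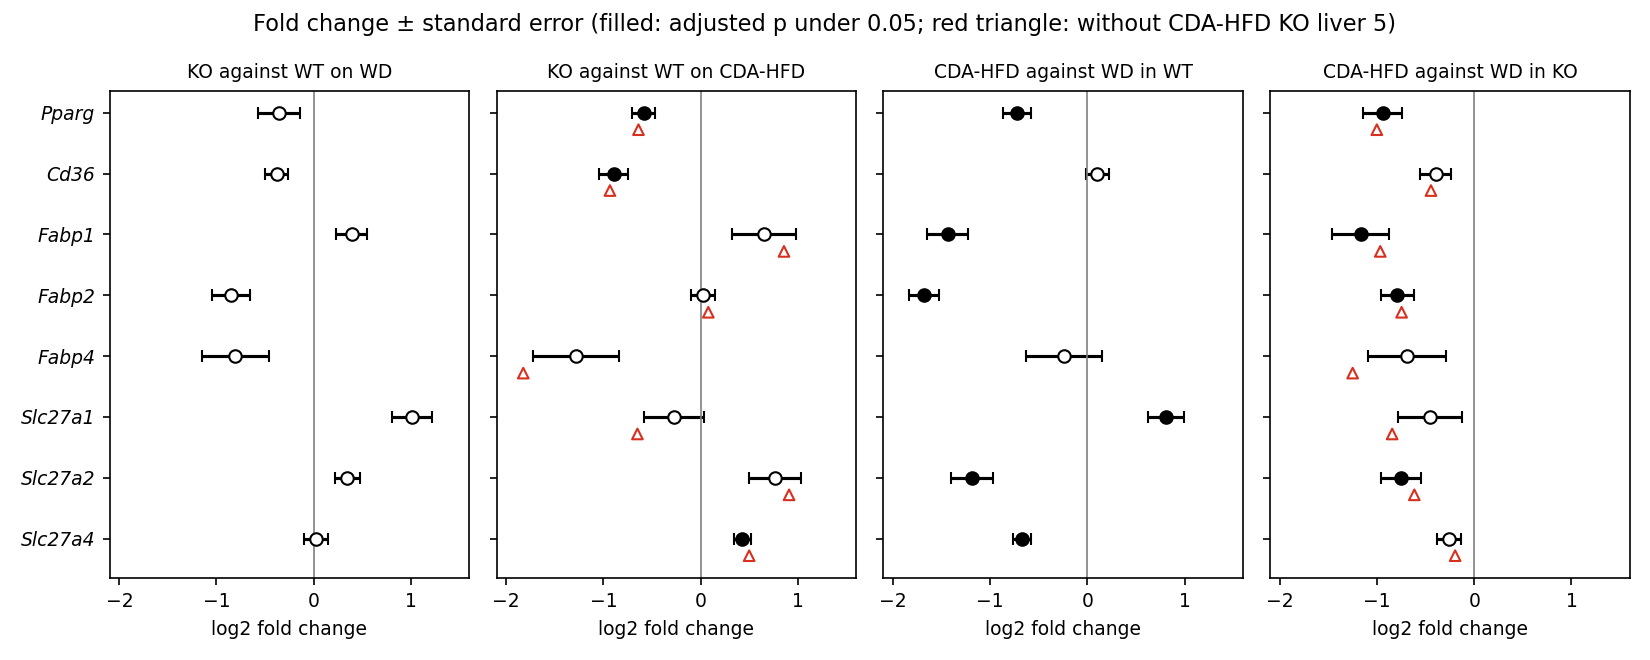
Log2 fold change ± standard error of the 8 genes in the 4 comparisons of vector and diet (linear axis, 10 livers each). Filled points passed at an adjusted p under 0.05, and red triangles give the value without CDA-HFD KO liver 5, which moves *Fabp4* from -1.28 to -1.83 and *Cd36* from -0.89 to -0.93.

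On WD no member passed, where 0.0757% of 15848 genes passed. In edgeR 6 of the 8 had an unadjusted p under 0.05, where at least 10.3% of all genes did. DESeq2 passed 2 of them, *Fabp2* and *Slc27a1*, beside 58 higher and 93 lower of all genes. *Slc27a1* was at 16.7, 17.8, 11.4, 13.0 and 11.2 CPM in WT livers and at 18.5, 35.5, 35.6, 30.4 and 20.8 CPM in KO livers. It was the only one of the 8 whose groups did not overlap on WD, as was the case for 2.22% of all genes, and its log2 fold change was 1.01 ± 0.21 (adjusted p = 0.14).

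*Fabp2* on WD was at 122, 147, 213, 193 and 142 CPM in WT livers and at 87.8, 73.1, 77.4, 79.1 and 135 CPM in KO livers. In 4 KO livers it lay under every WT liver, and KO liver 5 on WD lay among them (log2 fold change -0.85 ± 0.19, adjusted p = 0.169). Without that liver *Fabp2* passed at -1.05 (adjusted p = 0.0317). The enterocyte markers of this list were at or near 0 in the same livers, at 0.378 to 1.29 CPM in sum in WT and 0.389 to 0.932 CPM in KO livers on WD.

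*Cd36* on WD stood at 371, 446, 343, 340.2 and 359.6 CPM in WT livers and at 361, 273, 255, 246 and 293 CPM in KO livers. All but KO liver 1 lay below the WT livers, and the log2 fold change was -0.38 ± 0.12 (adjusted p = 0.297). *Pparg* overlapped widely, at 26.3 to 50.5 CPM in WT against 19.98 to 43.0 CPM in KO livers (-0.36 ± 0.21, adjusted p = 0.576). *Fabp4* did so too, at 10.6 to 37.1 and 6.91 to 16.6 CPM (-0.81 ± 0.35, adjusted p = 0.444). *Slc27a2*, at 1403 to 1863 CPM in WT against 1751 to 2476 CPM in KO livers, was at 0.35 ± 0.13 (adjusted p = 0.371). *Fabp1* was at 0.39 ± 0.16 (adjusted p = 0.42) and *Slc27a4* at 0.03 ± 0.12 (adjusted p = 0.964).

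Whether the KO effect itself differed between the diets was tested as the product of vector and diet over all 20 livers. None of the 8 genes passed in edgeR, where 0.556% of 17804 genes did. Of the 8, 4 had an unadjusted p under 0.05, where at least 14.05% of all genes did. DESeq2 passed 1, *Fabp2*, beside 232 higher and 131 lower of all genes. The difference, as the effect on CDA-HFD minus that on WD, was -0.51 ± 0.20 for *Cd36* (adjusted p = 0.237) and -0.23 ± 0.26 for *Pparg* (adjusted p = 0.708). A diet-dependent KO effect was therefore not shown for either gene. *Slc27a1* had fold changes of opposite sign on the diets, and its difference was -1.28 ± 0.40 (adjusted p = 0.146). Without KO liver 5 on CDA-HFD *Slc27a1* passed at -1.66 (adjusted p = 0.00477), *Fabp2* at 0.94 (adjusted p = 0.022) and *Slc27a4* at 0.48 (adjusted p = 0.0423), in a fit that passed 11.9% of all genes.

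In WT livers 6 of the 8 genes passed between CDA-HFD and WD, 5 lower and 1 higher on CDA-HFD, and in this comparison 51.1% of 16726 genes passed. The same 6 had no overlap between the diets, as did 37.1% of all genes. *Fabp2* fell most among the 8, from 164 ± 37.8 to 51.3 ± 6.86 CPM (log2 fold change -1.68 ± 0.15, adjusted p = 1.62e-05). *Fabp1* fell from 902 ± 116 to 334 ± 112 CPM (-1.44 ± 0.21, adjusted p = 2.07e-04), and *Slc27a2* from 1659 ± 172 to 732 ± 255 CPM (-1.19 ± 0.22, adjusted p = 8.73e-04). *Pparg* (-0.72 ± 0.15, adjusted p = 0.00153) and *Slc27a4* (-0.68 ± 0.09, adjusted p = 1.14e-04) were lower by less. In the same comparison 6 of 11 hepatocyte markers were lower and 1 higher, with a median log2 fold change of -0.66, while 10 of 15 macrophage, 10 of 12 stellate cell and 7 of 7 cholangiocyte markers were higher. The part of these markers' cells in the differences of *Fabp1*, *Slc27a2* and the other genes was not tested.

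*Slc27a1* was the 1 gene higher in WT livers on CDA-HFD (0.81 ± 0.19, adjusted p = 0.0034). *Cd36* was at 372 ± 43.3 CPM on WD and 402 ± 53.1 CPM on CDA-HFD (0.10 ± 0.12, adjusted p = 0.477), and *Fabp4* at 22.8 ± 11.9 and 19.5 ± 10.1 CPM (-0.24 ± 0.39, adjusted p = 0.634). Library size as the only scaling moved the median of all genes by 0.42 here. Under it *Cd36* passed as higher on CDA-HFD (0.53, adjusted p = 0.0096), and *Pparg* (-0.31, adjusted p = 0.15) and *Slc27a4* (-0.25, adjusted p = 0.0616) no longer passed.

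In KO livers 4 of the 8 genes were lower on CDA-HFD than on WD and none was higher, with 17% of 16387 genes passing. These 4 were also those without overlap, as were 15.2% of all genes. *Fabp1* was lower by 1.17 on the log2 scale (log2 fold change -1.17 ± 0.29, adjusted p = 0.022), *Pparg* was at -0.94 ± 0.20 (adjusted p = 0.0114), *Fabp2* at -0.79 ± 0.17 (adjusted p = 0.0117) and *Slc27a2* at -0.76 ± 0.21 (adjusted p = 0.0291). *Slc27a2* passed in 5 of 10 fits with 1 liver left out, and missed without KO livers 2, 4 or 5 on WD or 1 or 2 on CDA-HFD (adjusted p from 0.0531 to 0.0683). With library size as the only scaling, which moved the median of all genes by 0.25 here, *Pparg* missed as well (-0.69, adjusted p = 0.0579). *Cd36* stood at 286 ± 45.6 CPM on WD and 217 ± 42.0 CPM on CDA-HFD (-0.40 ± 0.16, adjusted p = 0.0999). *Slc27a4* (-0.26 ± 0.12, adjusted p = 0.167), *Slc27a1* (-0.46 ± 0.33, adjusted p = 0.356) and *Fabp4* (-0.69 ± 0.40, adjusted p = 0.259) did not pass. Without KO liver 5 on CDA-HFD *Fabp4* (-1.25, adjusted p = 0.0097) and *Slc27a1* (-0.85, adjusted p = 0.03) also passed. In KO livers 0 of 11 hepatocyte markers passed between the diets in edgeR, 2 had an unadjusted p under 0.05 and DESeq2 passed 1 as higher. Over all genes at least 32.37% had an unadjusted p under 0.05, and DESeq2 passed 1926 higher and 1732 lower of 16387. In edgeR 6 of 15 macrophage, 5 of 12 stellate cell and 3 of 7 cholangiocyte markers were higher. This comparison shares its KO livers with those of vector above, so the values stand side by side and are not independent of each other.

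An exact two-sided permutation test of the CPM of single genes gives 0.00794, the smallest p that 5 against 5 livers allow, wherever the groups do not overlap, and so restates the values above. Among comparisons with overlap the exact permutation p, unadjusted, was under 0.05 for *Fabp2* (0.0159), *Cd36* (0.03175) and *Slc27a2* (0.0397) between KO and WT livers on WD. It was so as well for *Slc27a2* (0.03175) and *Fabp4* (0.0476) on CDA-HFD and for *Cd36* between the diets in KO livers (0.0159).

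The other genes of fatty acid release, uptake, binding and activation were compiled as a list of 33. On CDA-HFD 2 of its 28 tested genes were higher and 4 lower in KO livers, where 15.5% of all genes passed, with a median log2 fold change of 0.17 against 0.00 over all genes. The lipase of lipoprotein triglyceride, *Lpl*, showed the largest fall: WT livers held 427, 302, 345, 259 and 364 CPM and KO livers 53.1, 29.8, 36.8, 44.8 and 180.5 CPM (-2.30 ± 0.46, adjusted p = 0.0142). KO liver 5 had the highest *Lpl* of the KO livers and was still below every WT liver. The binding protein genes *Fabp7* (-2.03 ± 0.43, adjusted p = 0.0167) and *Fabp5* (-1.90 ± 0.57, adjusted p = 0.0467) and the lipid droplet gene *Hilpda* (-0.80 ± 0.25, adjusted p = 0.0498) were lower as well.

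*Acsl1*, the main long chain acyl-CoA synthetase of liver, was higher in KO livers on CDA-HFD, at 1246 ± 528 against 473 ± 239 CPM (1.39 ± 0.40, adjusted p = 0.0392). Hepatic lipase, *Lipc*, was higher too (0.75 ± 0.22, adjusted p = 0.0416). *Slc27a5*, the bile acid and fatty acid transport protein of hepatocytes, narrowly missed at 489 ± 124 against 254 ± 104 CPM (0.94 ± 0.29, adjusted p = 0.0503). Without KO liver 5, 11 of the 28 genes were higher and 8 lower, where 41.4% of all genes passed, with *Lpl* at -3.05 (adjusted p = 4.03e-05) and *Slc27a5* at 1.08 (adjusted p = 0.00645). On WD 0 of 27 genes passed in edgeR and 5 had an unadjusted p under 0.05, where at least 10.3% of all genes did. DESeq2 passed 1, beside 58 higher and 93 lower of all genes. Between CDA-HFD and WD 15 of 28 were lower and 6 higher in WT livers, where 51.1% of all genes passed. The list was led by the acyl-CoA synthetase gene *Acsl5* (-1.58 ± 0.10, adjusted p = 2.85e-06) and the acyl-CoA binding protein gene *Dbi* (-1.49 ± 0.15, adjusted p = 2.3e-05). In KO livers 9 of 27 were lower and none higher, where 17% of all genes passed.

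**Figure D4:**
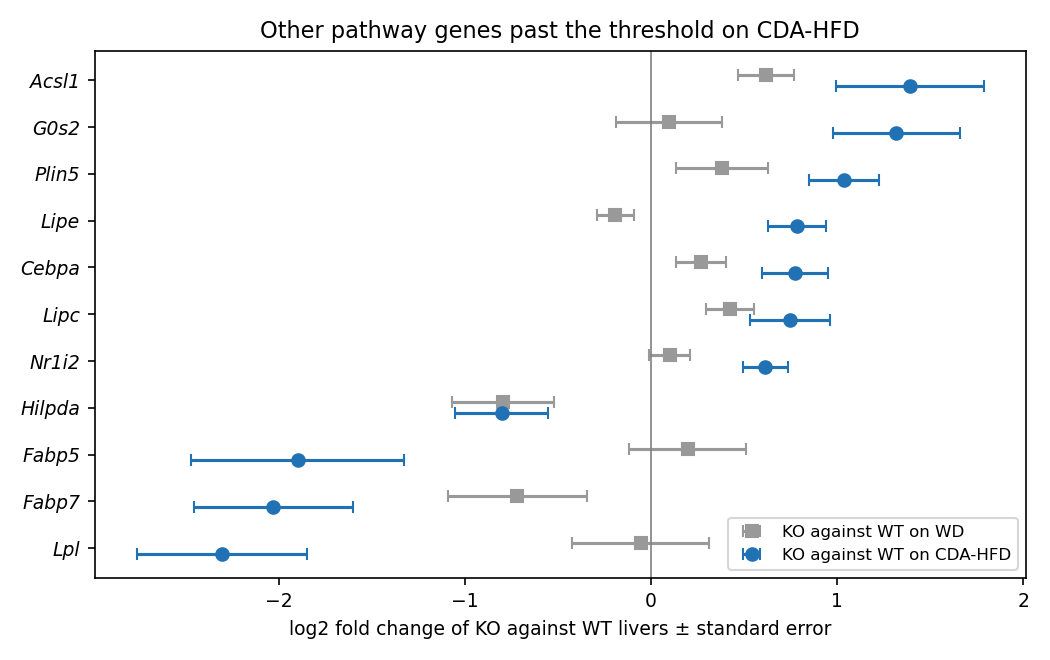
Log2 fold change of KO against WT livers ± standard error for the 11 pathway genes past the threshold on CDA-HFD (circles), with the value on WD (squares) beside each. *Lpl* is at -2.30 on CDA-HFD and -0.06 on WD, and *Acsl1* at 1.39 and 0.62, and the 11 were chosen by their values on CDA-HFD. With all livers the difference between the diets did not pass in edgeR for *Lpl* (adjusted p = 0.112) or *Acsl1* (adjusted p = 0.395).

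Known PPARγ targets outside the 8 genes moved in both directions between KO and WT livers. Of 21 tested on CDA-HFD, KO livers had 4 higher and 2 lower, where 15.5% of all genes passed. The median was 0.23 against 0.00 over all genes. The 4 higher were the lipid droplet protein gene *Plin5* (1.04 ± 0.19, adjusted p = 0.0122), the lipase inhibitor gene *G0s2* (1.32 ± 0.34, adjusted p = 0.0296), the hormone-sensitive lipase gene *Lipe* (0.79 ± 0.16, adjusted p = 0.0143) and *Acsl1*, and the 2 lower were *Lpl* and *Hilpda*. *Plin5* and *Acsl1* are also known targets of PPARα, and which receptor acts on the higher or the lower genes was not tested. *Cidec*, the lipid droplet fusion gene related to *Cideb*, was at 44.5 ± 12.7 CPM in WT against 39.3 ± 21.9 CPM in KO livers (-0.19 ± 0.35, adjusted p = 0.727). *Plin2*, the droplet coat gene, was at 418 ± 24.2 and 388 ± 67.4 CPM (-0.11 ± 0.12, adjusted p = 0.544).

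Without KO liver 5, 6 of the 21 targets were higher and 5 lower, again beside 41.4% of all genes. On WD 0 of 23 targets passed in edgeR and 5 had an unadjusted p under 0.05, where at least 10.3% of all genes did. DESeq2 passed 1, beside 58 higher and 93 lower of all genes. In WT livers 16 of 24 targets were lower and 3 higher on CDA-HFD than on WD, where 51.1% of all genes passed. Their median was -0.89 against 0.00 over all genes. *Cidea*, the CIDE gene of brown fat and steatotic liver, was at 74.9 ± 34.7 CPM on WD and 0.0601 ± 0.0458 CPM on CDA-HFD, and the monoacylglycerol acyltransferase gene *Mogat1* at 8.89 ± 3.12 and 0.238 ± 0.0645 CPM. *Cidec* fell from 186 ± 51.2 to 44.5 ± 12.7 CPM (-2.07 ± 0.22, adjusted p = 3.68e-05). In KO livers 9 of 23 targets were lower and 2 higher, where 17% of all genes passed.

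Partners, coregulators and related receptors of PPARγ made another list of 32. On CDA-HFD 2 were higher in KO livers and 0 lower in edgeR, where 15.5% of all genes passed. Of the 32, 12 had an unadjusted p under 0.05, where at least 35.1% of all genes did. DESeq2 passed 4 higher and 2 lower, beside 2242 higher and 1902 lower of all 17204 genes. The 2 higher in edgeR were *Cebpa*, a transcription factor of hepatocytes and fat cells (0.77 ± 0.18, adjusted p = 0.0212), and the xenobiotic receptor gene *Nr1i2* (0.61 ± 0.12, adjusted p = 0.0142). *Rxra*, the main RXR partner in hepatocytes, was at 419 ± 81.0 CPM in WT against 614 ± 108 CPM in KO livers (0.54 ± 0.17, adjusted p = 0.0524). *Ppara* was at 343 ± 80.9 and 508 ± 124 CPM (0.56 ± 0.22, adjusted p = 0.0977), and *Ppard* at 12.5 ± 1.71 and 12.0 ± 1.41 CPM (-0.06 ± 0.13, adjusted p = 0.744). Without KO liver 5 *Rxra* (0.65, adjusted p = 0.00452) and *Ppara* (0.71, adjusted p = 0.00636) passed as higher, beside the lower *Pparg*. In that fit, where 41.4% of all genes passed, the list had 9 higher and 4 lower. In WT livers *Ppara* was lower on CDA-HFD (-1.48 ± 0.18, adjusted p = 6.88e-05), as *Pparg* was. The list had 12 lower and 6 higher there, where 51.1% of all genes passed. In KO livers 4 of 31 were lower and 2 higher on CDA-HFD, where 17% of all genes passed. On WD 0 of 31 passed between the vectors in either tool, with 3 at an unadjusted p under 0.05, as had at least 10.3% of all genes.

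On CDA-HFD, with all livers, macrophage markers passed between KO and WT livers more often than all genes (15.5%). Of 15 macrophage markers 6 were lower and 0 higher in KO livers on CDA-HFD in edgeR, 11 had an unadjusted p under 0.05, and DESeq2 passed 8 lower and 0 higher. Over all genes at least 35.1% had an unadjusted p under 0.05, and DESeq2 passed 2242 higher and 1902 lower of 17204. The macrophage sum was 2504 to 4871 CPM in WT against 939 to 2935 CPM in KO livers on CDA-HFD, and 632 to 1948 and 548 to 960 CPM on WD. About the means of the 4 groups, over 20 livers, the log2 macrophage sum correlated with *Fabp4* at r = 0.90, with *Pparg* at 0.58, with *Cd36* at 0.46 and with *Slc27a2* at -0.71. Such values were not particular to macrophages. *Fabp4* correlated with the stellate cell sum at 0.80, the lymphocyte sum at 0.80, the cholangiocyte sum at 0.77 and the endothelial sum at -0.37. For *Slc27a2* these were -0.81, -0.53, -0.74 and 0.63. KO liver 5 is among the 20 livers. On WD 0 of the 15 macrophage markers passed in either tool, with 3 at an unadjusted p under 0.05, as had at least 10.3% of all genes. Of 11 hepatocyte markers 2 passed as higher and 0 as lower in KO livers given CDA-HFD, and of 12 stellate cell markers 1 was higher and 1 lower. Both counts were near the share of all genes. Their median log2 fold changes were 0.64 for hepatocyte and -0.59 for stellate cell markers, against 0.005 over all genes. An unadjusted p under 0.05 was held by 5 hepatocyte and 6 stellate cell markers. DESeq2 passed 4 hepatocyte markers as higher, and 1 stellate cell marker as higher and 1 as lower. None of the endothelial (12 tested), cholangiocyte (7), lymphocyte (10), fat cell (2) or enterocyte (1) markers passed there in edgeR, with 5, 2, 0, 2 and 0 of them at an unadjusted p under 0.05, and no muscle marker had enough reads to be tested. DESeq2 passed 2 endothelial and 1 fat cell marker as higher and 2 cholangiocyte markers as lower. With KO liver 5 left out, where 41.4% of all genes passed, 11 of 15 macrophage markers were lower and 2 higher, 8 of 12 stellate cell markers lower and 1 higher, and 7 of 7 cholangiocyte markers lower. In that fit 6 of 11 hepatocyte markers were higher and 0 lower, 7 of 12 endothelial markers higher and 1 lower, 1 of 10 lymphocyte markers and the 1 enterocyte marker lower, and of 2 fat cell markers 1 was higher and 1 lower. The log2 hepatocyte sum correlated with *Slc27a2* at r = 0.90, with *Fabp1* at 0.86, with *Slc27a1* at -0.74 and with *Fabp4* at -0.88. These points share libraries and scaling, and the correlations are descriptions. KO liver 5, a single liver, had a macrophage sum inside the WT range and 241 CPM of *Cd36*, against 333 CPM in the lowest WT liver. The part of macrophages, or of other cell types, in the differences of *Fabp4* and *Cd36* was not tested.

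**Figure D5:**
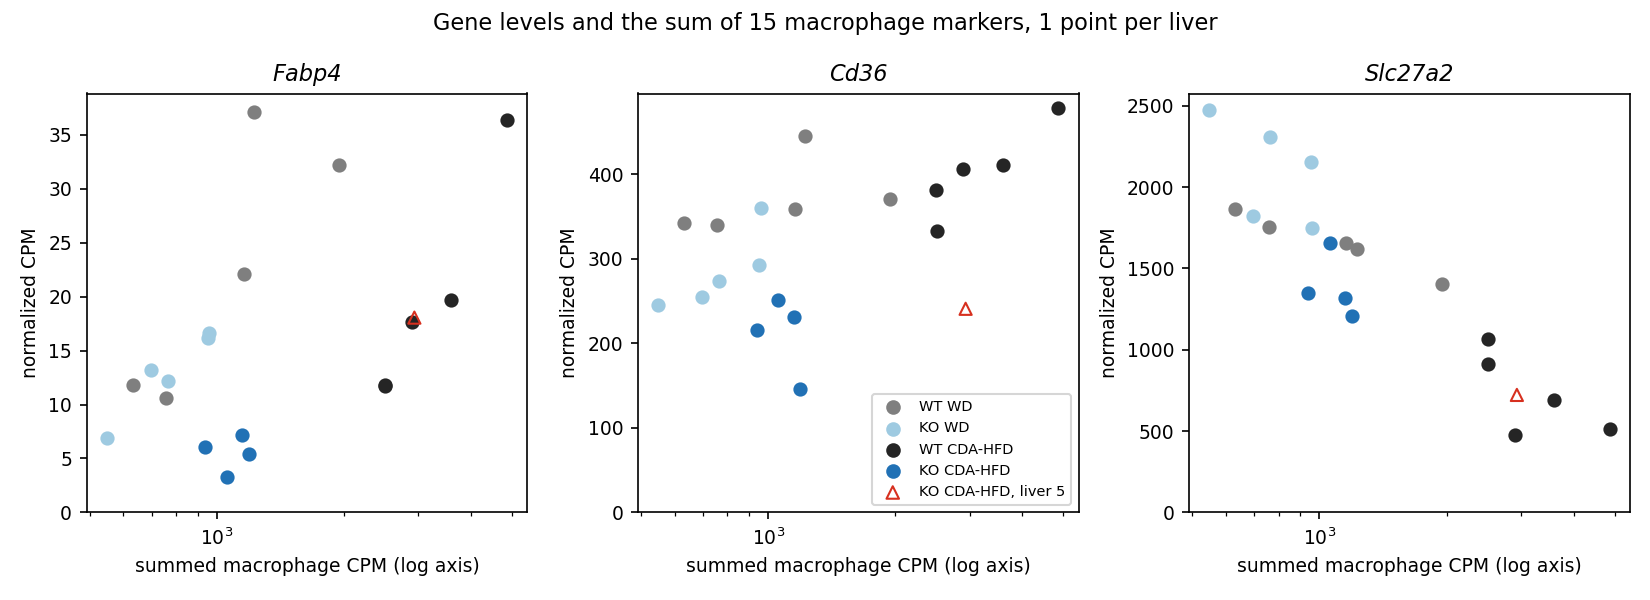
Normalized CPM of *Fabp4*, *Cd36* and *Slc27a2* (linear axis) against the summed CPM of 15 macrophage markers (log axis), with 1 point per liver. KO liver 5 on CDA-HFD (red triangle, 2935 CPM of macrophage markers) lies with the WT livers for *Fabp4* and *Slc27a2* and below them for *Cd36*.

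Among the 8 genes themselves, residuals about the group means correlated most closely between *Fabp1* and *Slc27a2* (r = 0.80 over 20 livers) and most inversely between *Fabp4* and *Slc27a2* (r = -0.77). *Pparg* correlated with *Fabp4* at 0.60 and with *Cd36* at 0.45. Of the fat cell markers, the defining *Adipoq* was at 0 in every WT liver and had reads in at least 1 KO liver on each diet. *Lep* went the other way on CDA-HFD, with reads in at least 1 WT liver and 0 in every KO liver. The 8 markers summed to 3.05 to 6.56 CPM in WT against 4.50 to 11.6 CPM in KO livers on CDA-HFD. On WD the same sum was 39.0 to 119 CPM in WT against 19.9 to 80.3 CPM in KO livers. There *Lep* had no reads in any liver and *Adipoq* none in WT livers, and whether the sum follows fat cells was not tested. The mean of *Cfd*, a known PPARγ target, was 45.8 ± 28.6 for WT against 15.9 ± 22.3 CPM for KO livers on WD. Its ranges overlapped (20.8 to 92.4 against 0.373 to 52.2 CPM), and it did not pass in edgeR (log2 fold change -1.50 ± 0.88, adjusted p = 0.5645).

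The genes most like *Pparg* in log2 CPM over the 20 livers, of 11037 with enough expression, were *Fam126a* (r = 0.90), *Ermp1* (0.89), the lysosomal acid lipase gene *Lipa* (0.88), *Cidec* (0.88) and *Slc44a3* (0.86). Of these 5, *Ermp1* (0.76, rank 25 of 11037) and *Cidec* (0.70, rank 113) stayed closest to it about the group means. *Fam126a* (0.55, rank 703) and *Lipa* (0.56, rank 682) did less so. Many other genes were thus closer to *Pparg* within the groups. The genes most like *Cd36* were the retromer gene *Vps35* (0.89), *Msrb3* (0.87), *Rragc* (0.87), the sulfate transporter gene *Slc26a2* (0.84) and the clathrin heavy chain gene *Cltc* (0.84). Their residual correlations ran from 0.48 (rank 495) to 0.69 (rank 14). Those most like *Fabp4* were *Pgd* (0.85), *Fbxo6* (0.85), *Tgfbr2* (0.85), *Myo1d* (0.84) and *Glb1* (0.84), with residual correlations from 0.73 (rank 942) to 0.86 (rank 175). The correlations over the 20 livers hold the differences between the 4 groups as well as those between livers.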

How the data were processed

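Total RNA from 20 livers was sequenced, 5 per group of vector and diet. The authors deposited raw, unnormalized read counts for each gene symbol, on mm10 per the submitters' processing notes. The aligner and counting program are not given in the sources used here. The labels name a directional library kit and the study's methods another, so it is not known whether strand was used. Depth was 11697049 to 16827147 reads on genes. Of all reads tallied, 20.7% to 28.8% lay on no counted feature and 18.0% to 28.7% were not uniquely aligned, and both were left out. The precision of a level rests on 5 livers.

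Groups came from the labels. Counts were fitted with edgeR 4.0.16 and limma 3.58.1 in R 4.3.3 (filterByExpr, TMM, quasi-likelihood F test, Benjamini-Hochberg adjustment over all genes tested, threshold 0.05), each comparison on its 10 livers and the product of vector and diet on all 20. DESeq2 1.42.0, other scalings and filters, 1 fit of all livers, a replicate block and each liver left out were the alternatives. List counts by DESeq2, and lists and named genes without CDA-HFD KO liver 5, were added after seeing the data. For correlations, CPM were put on the log2 scale after adding a prior count of 2. Single genes were also tested by exact permutation. The tests were tested on simulated data first. Python 3.11.15 and matplotlib 3.10.9 made the figures.

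The 8 genes and the 12 lists, compiled by hand, were chosen with earlier results of these data known. Besides the 8, the named genes were *Cideb*, 9 genes of the pathway always given, up to 4 per list, direction and comparison with the smallest adjusted p, and the 5 genes most like *Pparg*, *Cd36* and *Fabp4* in log2 CPM, without predicted genes. *Alb*, *Cdx1*, *Cdx2*, *Alpi* and *Adipoq* are named as defining markers, and *Lep* as the fat cell marker that went the other way from *Adipoq*. Transcript lengths are those of the principal transcript of the GRCm38 annotation. Nothing in the labels says that livers of a group came from separate cohorts, so p values measure the spread between these livers.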

Additional observations from a re-analysis of the deposited data

Results flagged for a closer look

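In 32 groups of 5 livers (8 genes in 4 groups), 2 had 1 liver far from the other 4, where chance gives about 1.6. For *Fabp2* in KO livers on WD, liver 5 (135 CPM, the others 73.1 to 87.8) held a gap of 0.764 of the whole range. For *Fabp4* in KO livers on CDA-HFD, liver 5 (18.1 CPM, the others 3.31 to 7.18) held a gap of 0.738 of the range, in the liver that also stood apart on the first principal component. The cause of either was not tested.

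*Lipe*, the hormone-sensitive lipase gene, was with all livers the 1 named gene whose KO effect differed between the diets in edgeR, by the test of the product of vector and diet. DESeq2 with all livers passed 1 PPARγ target as higher and 1 as lower, and 1 gene of the uptake list as lower. Its effect on CDA-HFD minus that on WD was 0.985 on the log2 scale (SE 0.18, adjusted p = 0.0172), and 1.05 without CDA-HFD KO liver 5 (adjusted p = 0.00255). *Lipe* stood at 28.3 ± 2.34 CPM in WT against 24.7 ± 3.09 CPM in KO livers on WD, and ranged from 8.26 to 12.0 CPM in WT against 13.6 to 20.9 CPM in KO livers on CDA-HFD, without overlap.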

How the results depend on the processing

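With all livers in place, the calls of *Pparg* and *Cd36* between KO and WT livers on CDA-HFD held under all 7 alternatives (adjusted p up to 0.0298 and 0.0195). The other calls depended more on the setting. On WD the count of genes passing, 12, became 151 with DESeq2, 38 without a filter, 26 in 1 fit of all 20 livers and 2 with a replicate block, and of the 8 genes DESeq2 passed 2 and the fit without a filter 1 (*Slc27a1*). On CDA-HFD 2664 genes became 1709 with library size only, 4144 with DESeq2 and 4170 in the fit of all 20 livers. DESeq2, the fit of all 20 livers and the replicate block passed 5 of the 8 genes, adding *Fabp4* and *Slc27a2*. In KO livers between the diets 2792 genes became 4476 in the fit of all 20 livers, where *Cd36* passed (-0.40, adjusted p = 0.0454). For the difference of the KO effect 99 genes became 44 with library size only, 363 with DESeq2, 52 without a filter and 63 with a replicate block, and DESeq2 passed 1 of the 8. Library size only gave 517 higher and 1192 lower genes between KO and WT livers on CDA-HFD, against 1409 and 1255. It gave 9120 and 1570 between the diets in WT livers, against 4335 and 4207, and 3371 and 553 in KO livers, against 1506 and 1286. It moved the median of all genes by -0.15 in the difference of the KO effect.

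With 1 liver left out, genes passing ranged from 1 to 33 on WD, 709 to 7201 on CDA-HFD, 7549 to 8723 between the diets in WT livers, 1568 to 2881 in KO livers and 35 to 2138 for the difference. Of the 8 genes 0 to 1, 2 to 7, 6 to 6, 3 to 6 and 0 to 3 passed, the highest counts on CDA-HFD and for the difference being those without CDA-HFD KO liver 5. For the difference, *Fabp2* also passed without WD KO liver 5 (1.07, adjusted p = 0.0251). Signs that turned were those of values near 0. *Slc27a4* on WD (0.03) ranged from -0.0521 to 0.109 and was at -0.00083, -0.0249, -0.017 and -0.0521 without WT liver 1 or 3 or KO liver 1 or 3. *Fabp2* on CDA-HFD (0.03) was at -0.19 with library size only, and ranged from -0.0366 to 0.0813, with -0.0359, -0.0366 and -0.0157 without WT liver 4 or KO liver 3 or 4. *Fabp4* between the diets in WT livers (-0.24) was at 0.19 with library size only, and ranged from -0.572 to 0.0037, the latter without WD liver 2. The causes of these changes were not tested.

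The replicate numbers were not used as pairs in the main fits. Residuals of same-numbered livers correlated between -0.37 and 0.35, positive for number 4 and negative for number 3 in every comparison of 2 groups. Livers of different numbers were not compared, so these values cannot decide whether the numbers pair the livers. With the replicate block 2459 genes passed on CDA-HFD, 8343 and 2044 between the diets in WT and KO livers, and 5, 6 and 4 of the 8 genes. In KO livers between the diets *Fabp4* passed (-0.88, adjusted p = 0.0471) and *Slc27a2* did not (-0.79, adjusted p = 0.0514). The spread over 5 livers limits every value.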
